A study of Homo sapiens with 3 samples.

Results

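The MYC and MAX network was described here across 3 CUT&Tag peak lists from A2780, a human ovarian carcinoma cell line. Its 10 genes were MYC, MYCN, MYCL, MAX, MXD1, MXD3, MXD4, MXI1, MNT and MLX, taken by name from 19974 protein-coding genes on chromosomes 1 to 22 and X. CUT&Tag sends a tethered transposase to antibody-bound chromatin. It was used here to map H3K27ac, histone H3 acetylated on lysine 27, which is found at promoters and enhancers in use. The BPP library came from A2780 cells labelled BPP, a peptide that, per the series design, competes for the phosphorylation site of BIN2. The CTR library came from A2780 cells labelled CTR and used the same H3K27ac antibody, labelled CST. The IgG library came from A2780 cells with a non-specific antibody, labelled Jackson, and served as background. Each group was 1 library of 1 cell line. The dose and time of the peptide, and what the CTR cells received, are not given in the sources used here. A TAT peptide is named in the design only for RNA-seq. The lists held 17841, 14836 and 7701 peaks, and the read depth behind them is unknown. No p-value between conditions was therefore computed. A peak found in 1 list may lie just under the threshold in the other, so such peaks are statements about the lists.

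The label of the line was checked against marker genes. Of 16 markers of ovarian carcinoma or epithelium, BPP marked 3 and CTR 2 by a peak within 1 kb of a gene end, and the marked genes were KRT8, KRT18 and MSLN. PAX8, WT1, EPCAM and MUC16 were among the 13 with no such peak. Of 4 mesenchymal markers, VIM was marked in both libraries and COL1A1, PDGFRB and DCN in neither. None of the 3 blood or 2 endothelial markers was marked in any list. Of all protein-coding genes, 38.2% had such a peak in BPP or CTR. With so few markers beside that share, these counts do not decide whether the label holds.

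MYC, MYCN and MYCL are transcription factors that bind DNA as partners of MAX, through a basic helix-loop-helix leucine zipper, at the E-box CACGTG. They activate genes of growth, ribosome production and metabolism, and they bring acetyltransferase complexes to chromatin. MXD1, MXD3, MXD4, MXI1 and MNT also pair with MAX at E-boxes, but recruit SIN3 co-repressors with histone deacetylases. MLX is the MAX-like partner of the glucose-sensing factors MLXIP and MLXIPL, and it can also pair with some MXD proteins and with MNT. MYC activity is high in many carcinomas, ovarian carcinoma among them.

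The promoters of 4 of these genes are shown because they differ in what bears on the network and on the mark. MXD4, MNT and MLX each carry 1 CACGTG, the network's own binding sequence, whereas MXD1 carries none and was the member whose own H3K27ac peak had the highest fold. Each line gives the 250 bases before the annotated start from RefSeq (GRCh38.p14), 5′ to 3′ on the strand of the gene, with CACGTG in capitals. They lie at chr2:69914859-69915108 on the plus strand (MXD1), chr4:2262110-2262359 on the minus strand (MXD4), chr17:2401061-2401310 on the minus strand (MNT) and chr17:42566850-42567099 on the plus strand (MLX).
MXD1: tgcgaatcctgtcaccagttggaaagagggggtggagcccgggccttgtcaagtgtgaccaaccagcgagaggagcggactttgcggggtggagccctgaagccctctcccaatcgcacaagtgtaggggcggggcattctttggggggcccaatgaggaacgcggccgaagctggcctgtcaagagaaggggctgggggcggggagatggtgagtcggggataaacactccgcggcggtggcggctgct
MXD4: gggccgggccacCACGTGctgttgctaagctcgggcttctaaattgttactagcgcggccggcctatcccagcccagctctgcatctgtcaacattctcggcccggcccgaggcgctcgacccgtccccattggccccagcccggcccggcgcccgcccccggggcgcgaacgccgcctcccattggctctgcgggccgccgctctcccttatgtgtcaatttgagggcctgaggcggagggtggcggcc
MNT: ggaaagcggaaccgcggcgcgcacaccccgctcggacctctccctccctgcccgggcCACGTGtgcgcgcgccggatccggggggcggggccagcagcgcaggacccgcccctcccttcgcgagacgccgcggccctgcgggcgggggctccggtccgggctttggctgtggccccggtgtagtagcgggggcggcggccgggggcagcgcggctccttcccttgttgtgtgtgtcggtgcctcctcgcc
MLX: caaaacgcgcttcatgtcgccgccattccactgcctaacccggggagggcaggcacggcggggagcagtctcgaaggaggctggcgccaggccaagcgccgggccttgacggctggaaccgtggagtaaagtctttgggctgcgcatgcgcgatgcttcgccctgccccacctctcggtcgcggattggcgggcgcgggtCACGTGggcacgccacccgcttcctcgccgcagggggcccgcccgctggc

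RefSeq promoter windows, which run from 250 bases before to 50 bases after a start, were held for 9 of the 10 members, with 12 starts in all. CACGTG, a palindrome and so the same on both strands, was in 3 of these 12 windows, against 8.34% of 22132 windows of protein-coding genes. Counted from the base before the start as −1, it lay at −238 to −233 in MXD4, −193 to −188 in MNT and −50 to −45 in MLX. The variant E-box, CACGCG or its reverse complement CGCGTG, was in 2 of 12 windows, those of MXD3 and of the start of MXI1 farthest along the gene, against 14.2% of all windows. The GC content of the 250 upstream bases ranged from 55.6% to 78.0% in the members, around a median of 62.0% for all protein-coding windows. None of the 3 windows with CACGTG was overlapped by a peak of any list. The nearest CTR peak lay 0.355 kb from the E-box in MLX, 4.01 kb in MNT and 4.25 kb in MXD4, and the nearest BPP peak 5.93, 2.61 and 3.47 kb away. Of the 9 windows without CACGTG, 7 were likewise free of peaks. The other two were that of MXD1, with all 300 bases under a CTR peak and 130 under a BPP peak, and 1 of the windows of MAX, with 291 bases under a CTR peak. A match is a description of letters and does not show that a factor was bound.

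The first comparison asked which members carried H3K27ac at their gene ends or annotated starts in BPP and in CTR cells. Within 1 kb of either gene end, 3 of 10 members (MYC, MXD1 and MLX) had peaks in both libraries, against 23.6% of all protein-coding genes. One end of MAX had a CTR peak with no BPP counterpart, which makes 1 member marked in CTR only against a background of 7.57%. No member was marked in BPP only, where the background was 7.03%, and none in IgG, where it was 2.13%. With so few genes these shares are near the background. MYCN, MYCL, MXD3, MXD4, MXI1 and MNT had no gene-end peak.

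Annotated starts were given by the reference for 9 members and 15812 protein-coding genes. MXD1 had a start peak in both libraries, 1 of 9 members against 25.9% of genes. MAX, MXI1 and MLX had a start peak in CTR and none in BPP, 3 of 9 against 8.08%. The reverse pattern was seen in 0 of 9 members, against 6.43%. The CTR start peaks of MAX, MXI1 and MLX were of lower rank within their list, with −log10 q values at percentiles 34.6, 47.1 and 33.3. Among peaks of fold 5 or more, or the 5000 peaks of highest −log10 p, none of these 3 start peaks remained and MXD1 was the only member marked at a gene end. With 1 library a group, the absence of a BPP peak at these starts cannot be set against replicate error.

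**Figure D1:**
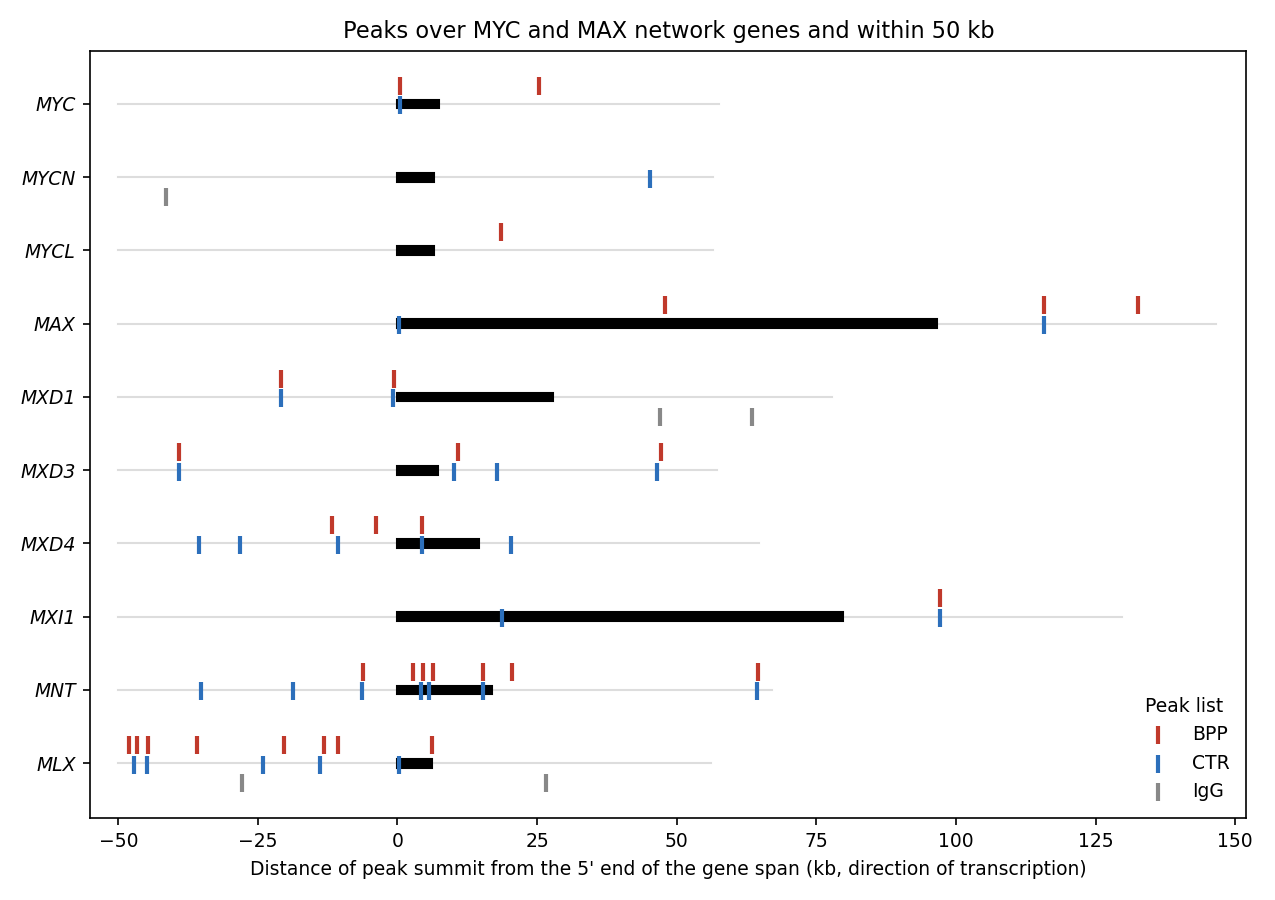
Peaks over each of the 10 genes and within 50 kb, by library. The x axis is the distance of the peak summit from the 5′ end of the gene span in kb, in the direction of transcription (for MYC, which has no strand in the reference tables used, from the lower-coordinate end); black bars are gene spans, grey lines the searched region, and red, blue and grey ticks BPP, CTR and IgG peaks. CTR ticks stand at the start of MYC, MAX, MXD1 and MLX, BPP ticks at those of MYC and MXD1, and no IgG tick lies on a gene.

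Over the spans and the 50 kb on either side there were 30 BPP, 29 CTR and 5 IgG peaks. At least 1 lay there for 9 of 10 members in BPP (69.7% of all protein-coding genes), 9 of 10 in CTR (68.8%) and 3 of 10 in IgG (37.9%). Counting only the gene span, 5 members had a BPP peak against 40.4% of genes, and 7 had a CTR peak against 38.5%. Of the BPP peaks 18 of 30 overlapped a CTR peak (60.0%, 95% Wilson interval 42.3% to 75.4%), against 50% of the whole list, and of the CTR peaks 17 of 29 did so with BPP (58.6%, 40.7% to 74.5%), against 59.6%. These intervals treat peaks as independent and hold no replicate error. The peaks were clustered, with 7 BPP and 7 CTR peaks around MNT and 8 BPP and 5 CTR peaks around MLX. The intervals may therefore be too narrow. No H3K27ac peak of any member overlapped an IgG peak. The share of each whole H3K27ac list that overlaps IgG is not given here, so this is not read as a trait of the members. Measured from the 5′ end of the gene, the nearest peak was at a median of 7.90 kb in BPP and 3.92 kb in CTR for the members, and 17.5 and 21.1 kb for all genes with a known strand. In IgG these medians were 124.9 kb for the members and 111.5 kb for all. The distances of the 10 members ran from 0 to 214.9 kb in BPP and from 0 to 83.5 kb in CTR. With so few genes over so wide a range, the members are not read as closer to peaks. They include MYC, measured from its lower-coordinate end because the reference gave no strand.

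Among the activators, MYC, the broadly expressed member of its family, was marked in both libraries near its lower-coordinate end, which is its 5′ end. The BPP peak (chr8:127735361-127736084) overlapped that end, its fold being 4.47 and its −log10 q 7.40, at percentile 52.9 of its list. Fold is the authors' enrichment of a peak over a background that is not described, and percentiles rank a peak within its own list. The CTR peak (chr8:127735812-127736114) began 0.378 kb inside the gene, with fold 4.48 and −log10 q 7.37, at percentile 51.8. The peaks shared 273 bp and their summits were 48 bp apart, so MYC had a mark of middle rank at the same place in each list. A further BPP peak lay 17.4 kb past the other end of MYC (chr8:127760338-127760944; fold 4.15, −log10 q 6.15) with no CTR peak within 50 kb of the gene beyond the one at its start. The nearest IgG peak to the start of MYC was 404.3 kb away.

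Farther from MYC the lists held a dense run of peaks over PVT1, a long non-coding RNA gene that begins 51.6 kb past MYC and spans 306.7 kb. This wider window of 1 Mb on either side was chosen after the values were seen. PVT1 carried 18 BPP and 12 CTR peaks, 9 of each overlapping the other list, and no IgG peak. Of 59098 annotated genes of any kind, 16 had as many or more BPP peaks over their span and 19 as many or more CTR peaks, while 910 genes were longer than PVT1. The peak of highest −log10 q over PVT1 lay at one place in both lists, with fold 4.00 and −log10 q 28.2 in BPP (chr8:127853670-127854777) and fold 4.56 and −log10 q 36.6 in CTR (chr8:127853746-127854886). By fold the highest BPP peak over PVT1 was another, of fold 4.72 (chr8:127827300-127827748), with no CTR counterpart. The PVT1 peaks reached from 52.6 to 206.4 kb past MYC in BPP and from 64.9 to 206.8 kb in CTR. On the other side of MYC, no H3K27ac peak of either library lay within 1 Mb, and IgG had 2. Median fold over PVT1 was 3.08 in BPP and 3.57 in CTR, at median percentiles of 12.8 and 19.0 in their lists, whereas the median percentile by −log10 q was 49.8 and 56.9.

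**Figure D2:**
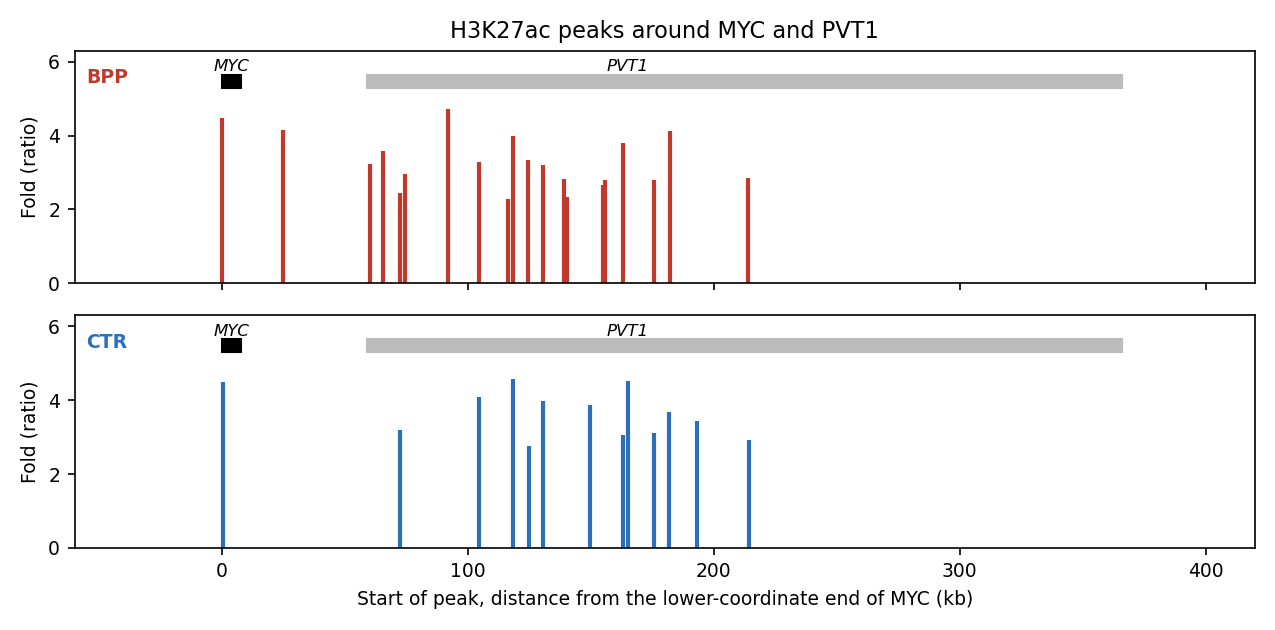
H3K27ac peaks around MYC and PVT1 in BPP (upper) and CTR (lower). The x axis is the distance of each peak's start from the lower-coordinate end of MYC in kb, bar height is the authors' fold per peak (ratio), and black and grey boxes are the MYC and PVT1 spans. Each list has 1 bar at MYC, BPP has a further bar between the genes, and 18 BPP and 12 CTR bars stand over PVT1, with none to the left of MYC.

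MYCN, the family member known for amplification in neuroblastoma, had no peak over its span in any list. The nearest BPP peak was 214.9 kb from its start. The nearest CTR peak was 44.9 kb away (chr2:15985463-15985817) and was among the weakest of its list, with a −log10 q of 3.15 at percentile 1.82. An IgG peak lay at a similar distance, 40.9 kb, on the other side. MYCL, the member first found in small cell lung carcinoma, likewise had none over its span. A BPP peak 18.5 kb from its start (chr1:39883150-39883447; fold 4.45, −log10 q 6.24) lay at the shared end of TRIT1, a tRNA-modifying enzyme gene, and the non-coding MYCL-AS1. The nearest CTR peak to the start of MYCL was 83.5 kb away.

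MAX, the obligate partner, had a CTR peak at its start and none there in BPP. The CTR peak (chr14:65102094-65102524) overlapped the annotated start at position 65102283 and covered 291 of the 300 bases of its promoter window, with fold 4.73 and −log10 q 5.83. The nearest BPP peak to the 5′ end was 47.6 kb into the gene (chr14:65054662-65055064), with fold 4.48 and −log10 q 4.42, at percentile 14.1. MAX overlaps FNTB there, a farnesyltransferase subunit gene, so this peak cannot be given to MAX alone. The start of FNTB, beyond the far end of MAX, had a peak of higher fold and −log10 q in both lists, with a fold of 6.91 in BPP (chr14:64986780-64987452) and 7.56 in CTR (chr14:64986769-64987328). These summits were 3 bp apart.

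Of the MAX-binding repressors, MXD1, an antagonist of MYC known from differentiating cells, had the highest fold of any peak on a member in both lists. Its BPP peak (chr2:69914183-69914988) ended 0.121 kb before the start, with fold 5.67 and −log10 q 10.3, at percentile 72.5. Its CTR peak (chr2:69914180-69915201) ran over the start, with fold 7.32 and −log10 q 16.1, at percentile 86.6. The peaks shared 806 bp. The CTR peak was 1022 bp wide and the BPP peak 806 bp, and the difference was on the side of the gene. The next peak upstream, at the start of the spliceosome gene SNRNP27, was present in both lists with summits at the same base (fold 4.79 in BPP and 5.59 in CTR). IgG had 2 peaks near MXD1, both past its far end, the nearer 18.8 kb beyond it.

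MXD3, expressed in dividing cells, had no peak on its span or ends in any list. The nearest peaks lay over RAB24, a small GTPase gene, 9.92 kb from the start of MXD3 in BPP (chr5:177301725-177302836; fold 3.41) and 9.95 kb in CTR (chr5:177302407-177302803; fold 3.50). The strongest peak within 50 kb was at the start of LMAN2, a lectin gene, in both lists (fold 6.97 in BPP and 6.52 in CTR). MXD4 had an intragenic peak in both lists, with summits 5 bp apart. Its fold was 2.81 in BPP (chr4:2257559-2257935) and 2.88 in CTR (chr4:2257602-2258088), 4.17 and 4.02 kb downstream of the start. BPP also had a peak 3.71 kb upstream of MXD4 (chr4:2265821-2266137; fold 3.17) that CTR lacked. CTR had a peak of fold 6.42 at the ends of POLN and HAUS3 (chr4:2241676-2242051) that BPP lacked. MXI1, a member with 3 annotated starts, had 1 CTR peak, 0.246 kb past the start farthest along the gene (chr10:110226242-110226751; fold 4.99, −log10 q 6.89), and no BPP peak over its 79.8 kb span. Both lists had a peak at the start of its neighbour SMNDC1, a splicing factor gene, with a fold of 6.05 in BPP and 4.82 in CTR.

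MNT, the widely expressed repressor that balances MYC, had the most peaks on a member gene. There were 4 BPP peaks and 3 CTR peaks inside its 16.99 kb span, and 3 of the BPP peaks overlapped a CTR peak. The pair near the 3′ end had folds of 2.94 in BPP (chr17:2385501-2385968) and 2.61 in CTR (chr17:2385572-2385958). Nearer the start, BPP had folds of 2.50, 2.14 and 2.49 and CTR had 2.15 and 2.69, and the BPP peak closest to the start (chr17:2397976-2398637), 2.42 kb into the gene, had no CTR counterpart. Each of these MNT peaks was low in its list by fold, at percentiles from 0.258 to 9.57 in BPP and from 0.128 to 2.44 in CTR. By −log10 q the same peaks ranged from percentile 13.7 to 75.3 in BPP and from 9.26 to 63.5 in CTR. A shared peak 5.82 kb upstream of MNT in BPP (chr17:2406884-2407600; fold 4.47) and 5.88 kb in CTR (chr17:2406940-2407619; fold 4.15) lay at the non-coding gene LOC284009.

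MLX had a peak in both libraries, but at opposite ends. The CTR peak (chr17:42567410-42567745) began 0.310 kb past the start, with fold 3.17 and −log10 q 5.72. The BPP peak (chr17:42572989-42573373) lay over the far end of MLX, inside the neighbouring recombination gene PSMC3IP, with fold 2.99 and −log10 q 4.69. MLX therefore counts as marked in both by gene end, although its BPP and CTR gene-end peaks did not overlap. Its surroundings held 8 BPP and 5 CTR peaks within 50 kb, all of fold 3.54 or lower. IgG had 2 peaks there, of higher fold (5.13 and 5.53) but lower −log10 q (3.23 and 3.82). Among the H3K27ac peaks 5 lay over ATP6V0A1, a vacuolar ATPase subunit gene, and 2 over HSD17B1, an oestradiol-forming enzyme gene. The strongest of these by −log10 q in BPP was at HSD17B1 (11.8; chr17:42552941-42554482) and in CTR at ATP6V0A1 (11.8; chr17:42521544-42522570).

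**Figure D3:**
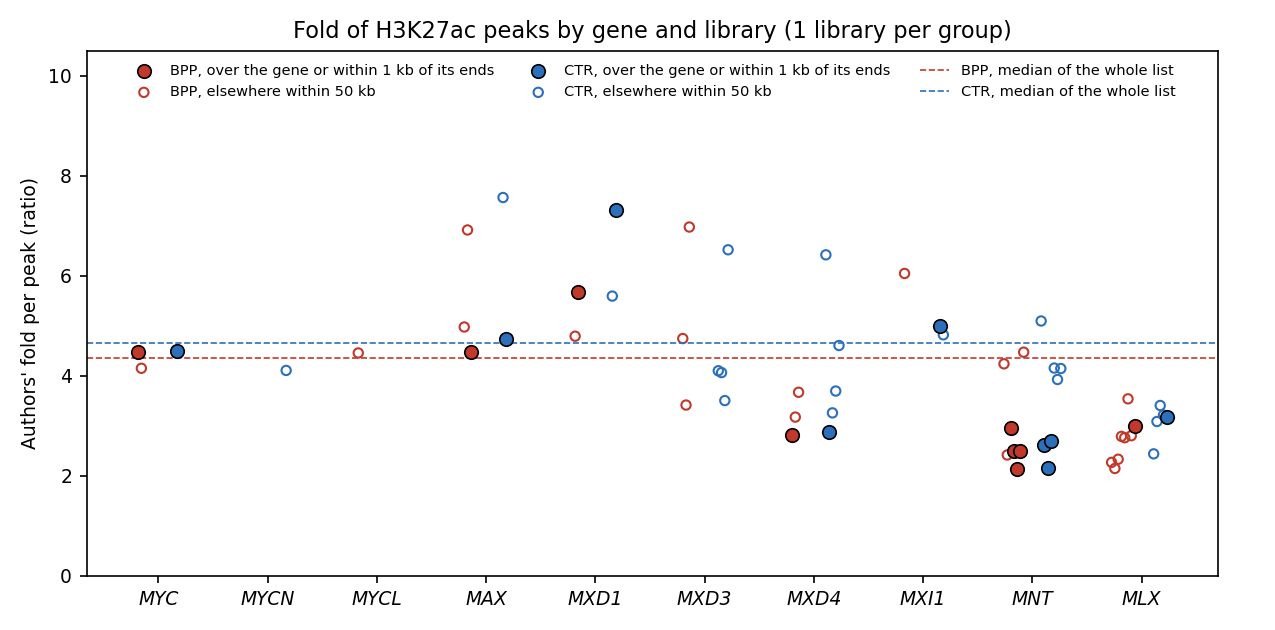
The authors' fold of each H3K27ac peak (y axis, ratio) by gene, with BPP in red and CTR in blue. Filled points lie over the gene or within 1 kb of its ends, open points elsewhere within 50 kb, and dashed lines are the median folds of the whole lists, 4.36 in BPP and 4.64 in CTR. The filled points at MXD1 are above the medians, and those at MXD4, MNT and MLX are below them.

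By position, most peaks near the members lay at the end of or inside another protein-coding gene. Which gene each peak acts on was not tested. Of 30 BPP peaks, 9 were on a member or within 1 kb of its ends, 11 at the end of another protein-coding gene, 5 inside one and 5 outside such genes. For the 29 CTR peaks these counts were 9, 9, 9 and 2. Peaks on the members themselves had a median fold of 2.94 in BPP and 3.17 in CTR, and MNT alone gave 4 of the 9 in BPP and 3 of the 9 in CTR. By −log10 q, 19 BPP and 19 CTR peaks around the members ranked below the median of their list. The 18 overlapping BPP and CTR pairs had the higher fold in BPP in 7 and in CTR in 11. Their depths and backgrounds are unknown, so this is not read as a change.

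Other genes of the network were described from lists of related factors, cofactors, genes of MYC protein stability and MYC target genes. Together with 6 genes of the MYC locus and 3 non-coding genes beside MYCN and MYCL these made 94 genes. Both libraries had a gene-end peak in 36 of them (38.3%), BPP only in 6 (6.38%) and CTR only in 16 (17.02%). The shares of all protein-coding genes given above were 23.6%, 7.03% and 7.57%. The lists were chosen with earlier results of these data known, and they include non-coding genes that the background does not. The shares are therefore a description and not an independent comparison. No gene of these lists had an IgG gene-end peak, against 2.13% of all protein-coding genes. With windows of 500 bp the counts for both, BPP only and CTR only were 30, 6 and 14. With windows of 2 kb they were 46, 9 and 12. Of the 16 genes marked in CTR only, 13 had a start in the reference and 12 of these had a CTR peak within 1 kb of it. Of the 6 marked in BPP only, 5 had a start and 3 of these had a BPP peak within 1 kb of it. The same shares over all genes are not given here, so these counts are not read as particular to these lists. HSPD1 and HSPE1 share 1 CTR peak and count as 2 of the 16.

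Among 5 related bHLHZip genes, MGA and USF1 were marked in both libraries and MLXIPL, the partner of MLX in sugar sensing, in CTR only (fold 6.39, −log10 q 13.7), at a gene end but not within 1 kb of an annotated start. Of 23 MYC cofactors, 10 were marked in both (43.5%), 4 in CTR only (17.4%) and 0 in BPP only. Over all protein-coding genes these shares were 23.6%, 7.57% and 7.03%, and with so few genes the BPP-only counts are near the background. The CTR-only cofactors included KDM5B, a histone H3 lysine 4 demethylase (fold 6.83, −log10 q 28.0), SUPT5H, an elongation factor (fold 5.87), and ACTL6A, an actin-like subunit of acetyltransferase and remodelling complexes (fold 6.02). Of 16 genes of MYC protein stability, 9 were marked in both (56.25%), 3 in CTR only (18.75%) and 1 in BPP only (6.25%). The deubiquitinase USP28 (fold 5.54) and the ubiquitin ligases HUWE1 (fold 3.66) and TRIM32 (fold 4.66) were on the CTR side, and the mitotic kinase PLK1 (fold 3.62) on the BPP side. HUWE1, and LDHA among the target genes, also had a BPP peak at another annotated start, so for both genes the CTR-only pattern holds for the gene end only.

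Of 41 MYC target genes, 15 were marked in both libraries (36.6%), 8 in CTR only (19.5%) and 4 in BPP only (9.76%). Over all protein-coding genes these shares were 23.6%, 7.57% and 7.03%. Those in CTR only with the highest −log10 q were the glycolytic gene ENO1 (fold 4.36, −log10 q 14.8), the mitochondrial chaperonins HSPD1 and HSPE1 (fold 5.18, −log10 q 13.96) and the stress gene GADD45A (fold 5.97, −log10 q 13.1). In BPP only were CAD, of pyrimidine synthesis (fold 4.25), IMPDH2, of guanine nucleotide synthesis (fold 3.24), the nucleolar methyltransferase gene NOP2 (fold 3.42) and the cell cycle inhibitor CDKN1A (fold 4.42). The BPP peaks of CDKN1A and of PLK1 lay near a gene end but not within 1 kb of an annotated start. None of the 6 genes of the MYC locus had a gene-end peak in any list. The first BPP peak of PVT1 began 1006 bp inside its lower-coordinate end, just beyond the window. MYCL-AS1 was marked in BPP only, by the peak it shares with TRIT1.

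**Figure D4:**
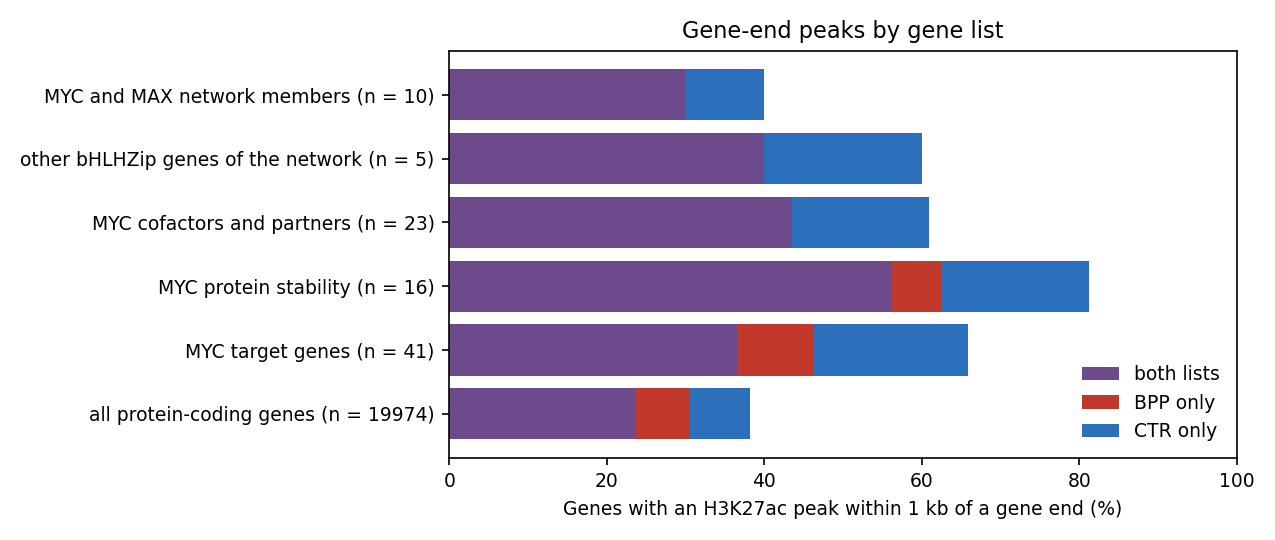
Share of the gene lists with an H3K27ac peak within 1 kb of a gene end (x axis, percent), divided into genes marked in both libraries (purple), in BPP only (red) and in CTR only (blue). The lists of MYC locus genes (0%) and of the 3 non-coding genes beside MYCN and MYCL (33.3%) are not drawn. The network genes reach 40.0% and all protein-coding genes 38.2%, while the lists of cofactors, stability genes and target genes reach 60.9%, 81.2% and 65.9%. The lists were chosen with earlier results of these data known.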

How the data were processed

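Peak lists of 3 CUT&Tag libraries were analysed, 1 per group, with groups taken from the sample titles. The submitters' processing notes name GRCh38.p13 (hg38), deepTools 3.3.0, Bowtie2 2.4.1 and fastp. How peaks were called, and whether IgG entered the calling, is not given in the sources used here. Each library has its own list deposited by the authors. The deposited score equals the whole-number part of −log10 p multiplied by 10, the deposited fold is a ratio over an undescribed background, and the deposited −log10 p and −log10 q are the caller's. Only peaks on chromosomes 1 to 22 and X entered the analysis, so 28 BPP, 37 CTR and 14 IgG peaks were left out.

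Gene spans came from the RefSeq table of GRCh38.p14, and starts, strands and promoter bases from the RefSeq promoter table. Peaks count from 1 bp of overlap, in windows of 1 kb on either side of gene ends or starts and within 50 kb of spans. Coordinates count from 1. The members and gene lists were chosen with earlier results of these data known. All members were named, and from each other list up to 4 genes per library marked in that library only, by −log10 q. One gene that this rule selects is not reported here. Other genes named share a peak with, or lie near, a member, or were chosen after their values were seen. MXI1-AS1 and MXD1-AS1 matched no symbol. Counting steps were tested on simulated data and against bedtools 2.31.1. The tools were matplotlib 3.10.9, scipy 1.17.1, pandas 2.3.3 and numpy 2.4.6 under Python 3.11.15. Alternatives changed the windows, the reach, the overlap and the peaks kept; those for starts were added after seeing the data.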

Additional observations from a re-analysis of the deposited data

How the results depend on the processing

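No paired analysis was possible because each group had 1 library, and for the same reason no library could be left out. Members marked at a gene end in both libraries numbered 3, and became 6 with windows of 5 kb (MXD3, MXD4 and MNT joined) and 1 with peaks of fold 5 or more or with the 5000 peaks of highest −log10 p. Members marked in CTR only numbered 1, and became 2 with −log10 q of 5 or more, where MLX lost its BPP peak, and 0 with fold 5 or more or the top 5000. Starts marked in both rose from 1 to 3 with windows of 5 kb, and starts marked in CTR only fell from 3 to 0 with fold 5 or more or the top 5000. No alternative gave a member marked in BPP only, at gene ends or at starts. The alternatives for starts were added after seeing the data. Around the members, BPP peaks numbered 47 within 100 kb, 4 of fold 5 or more and 7 among the top 5000, and CTR peaks 6 and 6 under the last 2 filters. With overlap of at least 50% of both peaks the overlapped share was 36.7% in BPP and 37.9% in CTR. In the other lists, genes marked in both fell from 36 to 15 with fold 5 or more and to 17 with the top 5000, where genes marked in BPP only fell from 6 to 3. Leaving out peaks that overlap IgG could not change the member counts, since no H3K27ac peak around a member overlapped an IgG peak. The counts of the other lists, where no gene had an IgG gene-end peak, also stayed the same. Depth is unknown, so fixed filters need not be equally strict in the lists.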

Other observations

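Genes most like the marked members were sought by the highest fold at their gene ends in the 3 libraries, with 0 where a list had no peak, and the nearest by Euclidean distance were taken. They were CNOT8, a subunit of the CCR4-NOT deadenylase, and the histone gene H2BC18 for MYC, UBE3A and HINT2 for MAX, GPHN and the general transcription factor gene TAF12 for MXD1, and PFKL and TUBG2 for MLX. For MYC the folds were 4.47 in BPP and 4.48 in CTR, and for CNOT8 4.48 and 4.45. For MXD1 they were 5.67 and 7.32, and for GPHN 5.73 and 7.27. UBE3A and HINT2, like MAX, had a gene-end peak in CTR and none in BPP, with CTR folds of 4.73 and 4.72. These genes were picked by these same values, so the shared patterns and folds follow from the choice. The distance was taken over 3 libraries, but IgG was 0 for every gene named, so the likeness rests on BPP and CTR. It describes only these values.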
